A study of Mus musculus with 78 samples.

Results

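Tecrl, Wfdc10, Nebl, Ndrg1 and Megf11 were examined across the sorted cell types of the adult mouse retina, because each has its peak in the arrays of the horizontal cell line, called Gja10 after its driver gene. They are 5 of 19301 genes with a single gene symbol on the array, and each is measured by 1 probe set, so 5 probe sets in all. All 5 were among the 15102 genes tested, those with a mean above 9.01, the median of all intensities, in at least 1 cell set. The level in the Gja10 arrays chose the genes, so their values there are a description and carry no test; tests are given only for comparisons that leave those arrays out, or for other genes.

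Fluorescent cells were sorted from the retinas of 22 transgenic lines. A sample held 200 sorted cells, the tissue had been dissociated for 15 min, and the RNA was hybridised to 78 arrays in 26 sets of 3 biological replicates. The sets hold 5 of photoreceptors, 1 of horizontal cells, 4 of bipolar cells, 11 of amacrine cells, 4 of ganglion cells and 1 of microglia. The horizontal cells came from adult B6Cf1-Tg(Gja10-Cre, #14)BR mice crossed to Rosa26-LSL-RFP, in which Cre is driven by Gja10 (connexin57) sequences and RFP appears after recombination. The same RFP reporter was used with Cre driven in rods (b2-Cre, 3 sets), cones (d4-Cre), ON bipolar cells (mGlur6-Cre), a bipolar population (Kcng4-CreERT2), starburst amacrine cells (a Chat knock-in Cre, called ChAT here), Crh amacrine cells, and Grik4 and melanopsin (Opn4) ganglion cells. PV ganglion cells carried PV-Cre with the ThyStopY reporter. EGFP transgenes marked the Chrnb4 cones, the Pcp2 and Lhx4 bipolar cells, the Arc (3 sets), Igfbp2, Rgs5, Chrna3, Fam81a, Fbxo32 and Ier5 amacrine cells, the Drd4 ganglion cells, whose samples the labels nevertheless give as RFP, and the Csf2rb2 microglia. All sets are labelled as adult in their titles and as a mixed FVB/N-Swiss Webster and C57BL/6J background; founders with the FVB/N-Swiss Webster origin carry a recessive photoreceptor degeneration allele and were used after backcrossing. The horizontal cells rest on 1 founder line in 1 batch (batch 3, with 10 other sets); d4, Fbxo32 and the second Arc set have no batch label. Each value is the summed RNA of a sorted pool, so fewer cells of a type and less RNA per cell cannot be told apart.

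Horizontal cells are inhibitory interneurons of the outer retina. They collect input from many photoreceptors, are joined to each other by gap junctions, which in the mouse contain connexin57, and feed back onto photoreceptor terminals, which sharpens contrast. Their cell bodies form a regular mosaic, in which cells of the type keep a distance from each other. None of the 5 genes is a classical marker of the type. Tecrl encodes a membrane enzyme resembling the reductase Tecr of fatty acid elongation and is best known from inherited cardiac arrhythmia. Wfdc10 encodes a small protein with a WAP disulfide core, the fold of many secreted protease inhibitors. Nebl encodes nebulette, an actin-binding relative of the muscle ruler protein nebulin. Ndrg1 encodes a cytoplasmic protein induced by hypoxia and differentiation, needed in myelinating Schwann cells. Megf11 encodes a transmembrane protein with EGF repeats that, with Megf10, acts in the mosaic spacing of horizontal and starburst amacrine cells.

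The 250 bases before the RefSeq transcription starts (GRCm38.p6) are shown for the genes with the widest separation from the other cell types, Tecrl and Wfdc10, each with 1 annotated start, and for the only one of the windows found here, 4 of them for Nebl, that held a searched motif. All run 5′ to 3′ on the gene's strand, and capitals mark the motif match.
Tecrl promoter (chr5:83355196-83355445, minus strand): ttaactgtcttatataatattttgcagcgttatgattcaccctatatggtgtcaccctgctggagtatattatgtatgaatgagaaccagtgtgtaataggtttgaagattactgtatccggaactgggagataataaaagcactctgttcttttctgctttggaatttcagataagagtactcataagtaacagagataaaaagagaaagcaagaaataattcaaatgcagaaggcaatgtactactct
Wfdc10 promoter (chr2:164655796-164656045, plus strand): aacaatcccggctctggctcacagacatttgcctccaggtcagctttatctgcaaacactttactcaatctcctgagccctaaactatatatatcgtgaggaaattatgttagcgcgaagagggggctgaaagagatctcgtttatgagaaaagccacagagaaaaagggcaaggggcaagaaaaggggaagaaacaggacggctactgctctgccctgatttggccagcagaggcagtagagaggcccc
Nebl promoter (chr2:17526131-17526380, minus strand): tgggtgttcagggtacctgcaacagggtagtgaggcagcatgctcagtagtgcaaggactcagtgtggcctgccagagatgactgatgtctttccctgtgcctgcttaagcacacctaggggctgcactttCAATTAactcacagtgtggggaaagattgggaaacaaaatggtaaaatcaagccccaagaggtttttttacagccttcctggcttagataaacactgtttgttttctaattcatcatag
The motifs searched on both strands were TAATTA and TAATTG, cores bound by homeodomain proteins such as Lhx1, and ATCGAT and ATCAAT, cores bound by Onecut proteins, since Lhx1 and Onecut factors are horizontal cell regulators. Of 32851 windows of this length in the reference table, 4.84% hold TAATTA, 7.17% TAATTG, 0.728% ATCGAT and 6.72% ATCAAT. The Nebl window holds TAATTG on the opposite strand, 119 bases before the start. None of these letters is in the Tecrl window, the Wfdc10 window or the 3 other Nebl windows. The reference had no window for Ndrg1 or Megf11, so those genes were not searched. The base composition of the windows differs: 34.4% of the Tecrl bases are G or C, against 49.2% for Wfdc10 and 46.4% for the Nebl window shown. Which of its 4 starts Nebl uses in these cells cannot be read from 1 probe set. The Nebl window shown lies inside the annotated span of the gene (chr2:17342673-17734949), and whether it acts as a promoter was not tested.

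The label of the sort was first set against marker genes. Of 8 horizontal cell markers listed, 7 are in the table and Onecut1 was not analysed here. All 7 were called higher in Gja10 than in the mean of the other 21 lines, where 450 of 15102 genes (2.98%) were called higher; a call needs an adjusted p below 0.05 in limma together with a log2 difference of 1 or more. Gja10 itself, the driver gene, was at 47.3, 47.1 and 51.0 on the 3 arrays, against at most 6.39 in the mean of another set (Lhx4). Lhx1, a LIM homeodomain factor of horizontal cells, had a mean of 102 against 8.62 in Drd4, the next set. For Lhx1 and the Gja10 gene no other set mean passed the filter of 9.01, so both entered the test only through the Gja10 set. The calcium-binding protein gene Calb1 had a mean of 595 against 146 in ChAT. Prox1 and Tfap2b were higher in another set. Prox1 had a mean of 37.4 against 42.3 in mGluR6, and Tfap2b 198 against 336 in the third Arc set. The summed level of the rod markers was lowest of the 26 sets in Gja10, with a median of 11.5, and 5 of the 6 rod markers were at or below the floor of the arrays there. The summed level of the ganglion markers ranked 5 of 26, with Sncg at 394 and Nefl at 147 as its largest parts. Of 7 ganglion markers tested these 2 were called higher and 1 was called lower. Rbpms (8.85), Opn4 (8.44), Slc17a6 (7.84) and Pou4f1 (5.23) were below the median of all intensities. Thy1, at 12.8, ranked 23 of 26. The part of other cell types in the values below was not tested.

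Tecrl was, of the 5 genes, the one nearest to a signal in a single cell type. Its intensities on the Gja10 arrays were 208, 234 and 245. In the 25 other sets the median of the means was 4.08 and the highest was 11.1, in the Drd4 ganglion cells, so Gja10 lay 20.6-fold above its nearest set. The lowest values of these arrays carry no order up to an intensity of 3.99, which is taken as the floor, and 33 of the 75 other arrays were at or below it for Tecrl. With values raised to that floor Gja10 was at least 48.9-fold above the mean of the other 21 lines. Below Drd4 the order of the sets has little content, since each of the remaining neighbours in the order overlapped in its arrays.

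Wfdc10 had the highest level of the 5 probe sets in Gja10, although intensities of different probe sets are not comparable. Its arrays read 863, 648 and 793. The next set was the unnumbered set of b2 rods, with 20.1, 62.8 and 51.8 and a mean of 40.2, so the gap was 18.9-fold. Elsewhere Wfdc10 was low but not at the floor: 71 of the 75 other arrays were above the median of all intensities, the median of the set means was 14.8, and the lowest set was Crh with 6.39. No 2 neighbours in the order of the 25 other sets were free of overlap. In the b2 rods the difference from the other lines was 0.66 (adjusted p = 0.0020), under the threshold of size. Held within a batch it was 1.46 in batch 2, where the 6 rod arrays (16.5 to 62.8) lay above the 6 others (6.21 to 13.4), and -0.04 in batch 1. How large a share of all tested genes splits so in batch 2 was not counted. The comparators differed: the others averaged 10.2 in batch 2, where they are mGluR6 and Chrna3, and 17.4 in batch 1, while the first and second rod sets were alike, with means of 16.9 and 19.5.

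Nebl read 223, 235 and 287 in Gja10. The next 2 sets were the Fbxo32 amacrine cells, with 86.6, 26.9 and 34.8, and the mGluR6 ON bipolar cells, with 57.8, 22.9 and 37.0. The lowest Gja10 array stood above the highest other array, with a gap of 5.70-fold between the means of Gja10 and Fbxo32. Nebl was graded among the rest rather than flat: Drd4 followed with a mean of 27.0, Crh with 25.5 and Opn4 with 24.7, the median of the 25 sets was 11.2, and the lowest set was Kcng4 with 8.30.

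Ndrg1 read 211, 229 and 229 in Gja10, the tightest triplet of the 5 genes (SD 0.07 on the log2 scale, n = 3). The 3 sets of b2 rods came next, with means of 37.0, 35.2 and 33.1, followed by Chrna3 with 21.4. The gap to the rods was 6.01-fold. Crh was lowest with 5.25, and the median of the 25 sets was 14.4.

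Megf11 does not bear out the word exclusive. Its Gja10 arrays read 24.4, 22.3 and 26.4, and the ChAT starburst cells read 19.5, 19.7 and 21.6. The arrays of these 2 sets did not overlap, but the gap between the means was 1.20-fold, against 2.35-fold between Gja10 and the mean of the other 21 lines. Drd4 followed with 12.1, and Crh was lowest with 7.99. Megf11 was thus high in horizontal and starburst cells and low in the remaining sets.

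**Figure D1:**
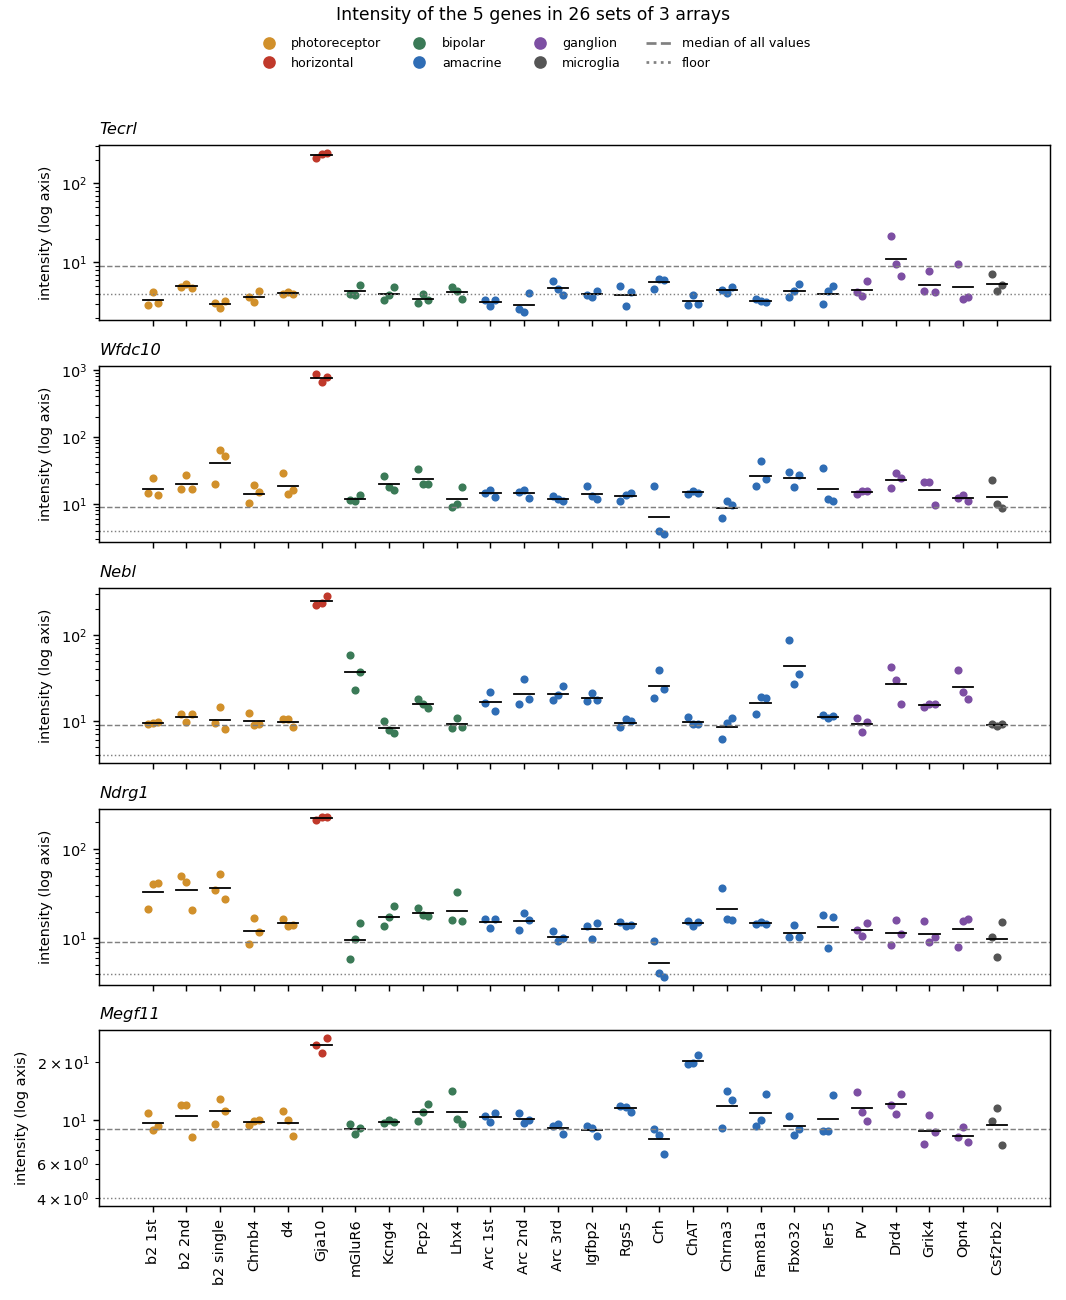
Intensity (log axis) of Tecrl, Wfdc10, Nebl, Ndrg1 and Megf11 on each of 78 arrays. Points are arrays coloured by cell class, bars are set means of 3 arrays, the dashed line is the median of all intensities (9.01) and the dotted line the floor (3.99). In each panel the Gja10 points are highest, and for Megf11 the ChAT points (19.5 to 21.6) lie just below them.

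The separation of Gja10 was set beside that of the other tested genes, as a description, since the genes were picked by it. All 3 Gja10 arrays lay above the 75 other arrays in 102 of 15102 genes (0.675%), and the 5 genes are among these. The mean of Gja10 was the highest of the 26 sets in 579 genes (3.83%) and exceeded the next set by 1 or more log2 units in 69 genes (0.457%). Ordered by that gap, Tecrl was at rank 2 with 4.36, Wfdc10 at rank 3 with 4.24, Ndrg1 at rank 11 with 2.59 and Nebl at rank 13 with 2.51. Only Mtarc1, a mitochondrial amidoxime reductase gene, had a wider gap than Tecrl, with 4.48. Lhx1 followed Wfdc10 with 3.56. The gap of Megf11 was 0.26, at rank 253. Against only the 10 other sets of batch 3, the difference between Gja10 and the others was 5.50 for Tecrl, 5.83 for Wfdc10, 4.02 for Nebl, 4.22 for Ndrg1 and 1.33 for Megf11, compared with 5.72, 5.64, 4.10, 4.02 and 1.23 over the other 21 lines.

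**Figure D2:**
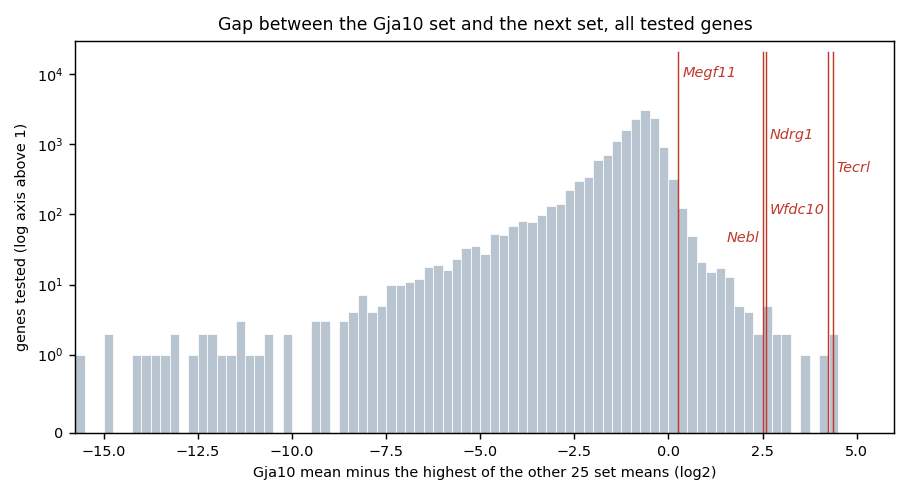
Histogram of the difference (log2, x axis) between the Gja10 mean and the highest mean of the other 25 sets for 15102 tested genes, with counts on a log axis above 1. Negative values mean that another set is higher; red lines mark the 5 genes, from Megf11 at 0.26 to Tecrl at 4.36.

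With Gja10 left out, the question was whether the 5 genes also differ between the remaining cell types. A moderated F test over the 25 other sets called 11589 of 15102 genes (76.7%), and all 5 genes were among them, so with that background the count says little about these genes in particular. Nebl varied the most, with F = 9.73 (adjusted p = 3.3e-11), then Ndrg1 with 5.63 (adjusted p = 3.3e-07), Megf11 with 4.17 (adjusted p = 2.1e-05), Tecrl with 3.53 (adjusted p = 0.00015) and Wfdc10 with 3.24 (adjusted p = 0.00039). Within the sets of batch 3 alone the adjusted p was 0.075 for Megf11, 0.050 for Tecrl and 0.083 for Wfdc10, none of them past the threshold. Each of the 21 other lines was then compared with the mean of the other 20. Of 105 gene by line comparisons 7 were called, against 6.72% of such comparisons over all tested genes, so their share was near the background. The comparisons share control samples.

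Ndrg1 was higher in the b2 rods. The 9 rod arrays ranged from 20.6 to 52.8 with a median of 40.8, and the 66 arrays of the other lines without Gja10 ranged from 3.74 to 36.9 with a median of 14.3; 4 of those 66 reached the lowest rod array. The difference was 1.42 ± 0.16 (SE) on the log2 scale (limma adjusted p = 5.3e-11), in a line where 7.66% of genes were called higher. It was present within each batch that held rods: 1.19 for the set in batch 1 against the 7 others there, and 1.34 for the 2 sets in batch 2 against the 2 others. With batch as a term the difference was 1.10 (limma adjusted p = 0.00035). The batch term left out d4 and Fbxo32 and took the second Arc set as batch 2. The 6 cone arrays, of the Chrnb4 and d4 lines, ranged from 8.70 to 17.1 for Ndrg1; the difference between rods and cones was not tested. The rod marker sum was 7826 to 11220 on the b2 arrays and 3183 to 4443 on the cone arrays. Its relative Ndrg3 was also called higher in b2, by 1.83 ± 0.25 (SE) (adjusted p = 1.5e-08), and in d4, by 1.28 ± 0.42 (SE) (adjusted p = 0.027).

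Nebl was higher in 2 lines of unlike cell types. In the mGluR6 ON bipolar cells it was higher by 1.42 ± 0.23 (SE) on the log2 scale (limma adjusted p = 6.1e-06). In that line 2.95% of genes were called higher. The 3 arrays lay above all 9 other arrays of batch 2, which ranged from 6.20 to 14.4. The share of all tested genes that separate in this way was not counted. The first mGluR6 array was highest, and without it the difference was 1.09, still called. Its microglia marker sum was 796 against 159 and 179 on the others, in the order of Nebl. Nebl had a mean of 9.05 in the Csf2rb2 microglia, and the part of microglial RNA in its mGluR6 value was not tested. In the Fbxo32 amacrine cells it was higher by 1.67 ± 0.23 (SE) (adjusted p = 4.2e-07; 1.17% called higher), with 1 array at 86.6 and the others at 26.9 and 34.8; without the first array the difference was 1.17, still called. Fbxo32 has no batch label, so no value within a batch can be given for it. The horizontal marker sum was 427, 235 and 327 on the 3 Fbxo32 arrays, in the order of Nebl, against 2935 to 3305 in Gja10. Its largest parts were Tfap2b, at 159, 65.7 and 92.1, and Septin4, at 157, 93.0 and 130, followed by Calb1 at 56.9, 29.4 and 52.1. Tfap2b had a higher mean in the third Arc amacrine set (336) than in Gja10 (198). Lhx1 read 5.55, 3.94 and 4.61 on the Fbxo32 arrays, and the Gja10 gene 5.25, 3.78 and 5.18. The first array also had the highest sums of rod markers (146 against 73.1 and 84.1), Muller glia markers (976 against 639 and 659) and astrocyte markers (827 against 365 and 496). Nebl itself had means of 9.49, 11.2 and 10.3 in the first, second and unnumbered b2 rod sets. The part of these marker signals in the Nebl value of Fbxo32 was not tested. Other bipolar lines did not share the Nebl level: Kcng4 was the lowest set, at -0.83 relative to the other lines, a difference under the threshold of 1. In Drd4 the difference was 0.95 (adjusted p = 0.00094), also under it.

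Tecrl was higher in the Drd4 ganglion cells, by 1.42 ± 0.21 (SE) on the log2 scale (adjusted p = 4.4e-07; 5.34% of genes called higher). The 3 Drd4 arrays read 21.5, 9.59 and 6.66, and the first stands apart. Within batch 3 the difference was 1.27, and without the first array it was 0.95 and no longer called. That array also had more of the horizontal markers Calb1 and Septin4. Calb1 was at 78.6 against 25.8 and 23.3 on the others, and Septin4 at 548 against 261 and 233. Prox1 and Tfap2b were also highest on it, while Onecut2 went the other way, with 3.42, 5.38 and 16.5. Lhx1 read 11.0, 8.21 and 7.10 on the 3 arrays, and the Gja10 gene 6.02, 4.10 and 4.30. The first array had more of the Muller glia gene Rlbp1 as well, with 1884 against 579 and 275. The endothelial gene Cldn5 was at 522 against 241 and 99.3. Of the bipolar genes, Pcp2 was at 977 against 325 and 449, and Cabp5 at 614 against 155 and 127. The summed horizontal markers were 766, 339 and 326 on the 3 arrays, in the order of Tecrl, with Septin4 the largest part. Whether any of these other cell types carry the Tecrl signal was not tested.

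Megf11 was higher in the ChAT starburst cells, by 1.02 ± 0.13 (SE) on the log2 scale (adjusted p = 1.9e-08; 1.32% of genes called higher). Since 1.02 sits at the threshold, the call is lost with a batch term, at 0.95, and without the third ChAT array, at 0.97, although the adjusted p stays small in both, at 3.0e-05 and 1.4e-05. A comparison within batch 1 set ChAT against the Arc (first set), Fam81a and Ier5 amacrine cells, where 184 genes (1.22%) were called higher, of 318 called in all. Megf11 differed by 0.95 ± 0.14 (SE) (adjusted p = 2.2e-06), so it passed the p threshold and not the threshold of size. The 3 ChAT arrays, from 19.5 to 21.6, lay above all 21 other arrays of batch 1, which ranged from 8.79 to 14.0. The share of all tested genes with such a split was not counted. None of Tecrl, Wfdc10, Nebl and Ndrg1 was called in the same comparison. Of the horizontal markers, Calb1 was called higher in it by 3.07 (limma adjusted p = 1.8e-10) and Septin4 by 1.36 (limma adjusted p = 0.019). The others were not called: Tfap2b differed by 0.74, Onecut2 by 0.20, Lhx1 by -0.005, Gja10 by -0.02 and Prox1 by -0.77. The partner Megf10 was dim in every set and was not tested; its mean was 7.57 in Gja10 and 5.31 in ChAT.

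The Crh amacrine cells gave the 2 calls downward, in a line where 11.7% of genes were called lower. Ndrg1 was at 9.39, 4.11 and 3.74 and lower by 1.46 than in the other lines (adjusted p = 1.4e-05). Wfdc10 was at 18.5, 3.92 and 3.59 and lower by 1.33 (adjusted p = 0.00039), a call that was lost without the second array, at -0.97, and without the third, at -0.91. The last 2 arrays for Wfdc10, and 1 array for Ndrg1, were at or below the floor of 3.99; with values raised to it the differences were -1.27 and -1.43, which are then bounds. The first Crh array read higher than the other 2 for both genes. The Crh arrays agreed least of all sets, with a lowest correlation of 0.70 between 2 arrays over the tested genes, against 0.97 for Gja10. The rod marker sum of the 3 Crh arrays was 327, 2709 and 1393. In the b2 rods the set means were 33.1 to 37.0 for Ndrg1 and 16.9 to 40.2 for Wfdc10, above those of Crh. The part of rod RNA in the Crh values was not tested.

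**Figure D3:**
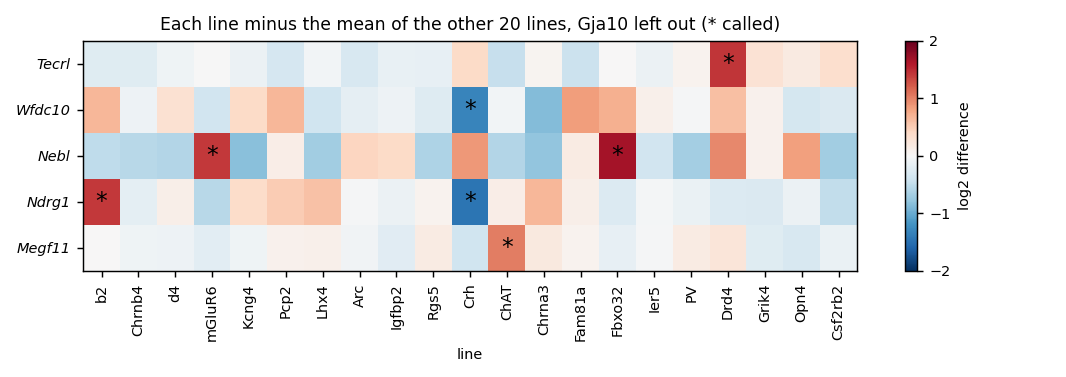
Difference (log2, colour scale) of each of the 21 lines other than Gja10 (columns) from the mean of the other 20, for Tecrl, Wfdc10, Nebl, Ndrg1 and Megf11 (rows); asterisks mark the 7 calls. The strongest colours are Nebl in Fbxo32 (1.67) and in mGluR6 (1.42), Ndrg1 in b2 (1.42) and in Crh (-1.46), and Tecrl in Drd4 (1.42).

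The sets of Arc and of b2 that were measured 3 times each give the size of differences with no change of line, but batch is not held. The first Arc set is in batch 1, the second has no batch label and the third is in batch 3. The first b2 set is in batch 1, and the second and the unnumbered set, titled b2 single, are in batch 2. None of 30 gene by contrast comparisons was called by limma for the 5 genes, where 0.98% of such comparisons were called over all tested genes; 5 of the 30 had an unadjusted p below 0.05. The largest was Wfdc10 in the unnumbered b2 set minus the first, with 1.26 (adjusted p = 0.14).

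Genes related to the 5 by family or pathway were then compared between Gja10 and the mean of the other 21 lines, in 5 lists. Over all tested genes 2.98% were called higher in that comparison and 1.24% lower. For fatty acid elongation, 11 of 13 genes were tested and none was called by limma, although 4 had an unadjusted p below 0.05; the median difference was -0.03 against -0.02 for all tested genes. Hsd17b12, the ketoacyl reductase of the elongation cycle, was at 283, 257 and 290 in Gja10 and differed by 0.99 ± 0.27 (SE) (adjusted p = 0.0093), just under the threshold. Elovl1 and Elovl6, elongases that start the cycle, lay the other way, at -1.23 (adjusted p = 0.10) and -0.85 (adjusted p = 0.11); within batch 3 Elovl1 was called lower, at -1.56 (adjusted p = 0.042). Tecr, the reductase after which Tecrl is named, was high everywhere: its mean was 2527 in Gja10, where it ranked 3 of 26, and it was lowest in microglia with 635. Its difference of 0.58 (adjusted p = 0.0011) was under the threshold of size.

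For WAP and Kunitz inhibitor genes, 13 of 22 were tested, 1 was called higher and 1 lower, and the median was -0.16. Wfdc9 rose by 2.20 on the log2 scale. Its Gja10 arrays read 30.5, 26.1 and 16.5, and the next set was again the unnumbered b2 set with 8.26. Only its Gja10 mean passed the filter of 9.01, so its call rests on the set that let it into the test. With no filter 1 of 20 genes of the list was called higher. Wfdc9 and Wfdc10 overlap in the RefSeq annotation on opposite strands, and the tables used here give no probe positions, so a signal shared between them cannot be told apart. The other neighbours of Wfdc10 did not share the peak: Wfdc13 differed by -0.05, and Wfdc16 and Spint4 were dim. Wfdc1 was called lower, at 10.2, 11.5 and 10.6 in Gja10 against a mean of 23.5, and fell by 1.13 on the log2 scale (adjusted p = 0.0011); its highest set was Kcng4 with 890. Wfdc2 differed by -0.16.

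For the nebulin family and thin filament genes, 15 of 22 were tested, 3 were called higher and none lower, and the median was 0.24. Tpm3, a tropomyosin that coats actin filaments, rose by 3.61 ± 0.23 (SE) (adjusted p = 2.1e-19), from a mean of 95.5 to arrays of 1158, 1218 and 1112. Tmod1, which caps the pointed ends of those filaments, rose by 2.43 ± 0.21 (SE) (adjusted p = 1.5e-13), to 58.6, 46.0 and 64.0 from a mean of 10.3. For both genes the next set was the Csf2rb2 microglia, with 214 and 15.6, and no other array reached the lowest Gja10 array. Tpm1 rose by 1.21 ± 0.30 (SE) (adjusted p = 0.0040) but was at rank 5 of the 26 sets, with Arc 3rd highest at 91.9, and within batch 3 only 2 genes of the list were called. The closest relatives of Nebl did not follow it: Neb and Nrap were dim, and Lasp1 had its lowest level of the 26 sets in Gja10, at 6.88.

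For the Ndrg family and hypoxia targets, 22 of 24 were tested, 2 were called higher and none lower, and the median was 0.08. P4ha2, a collagen prolyl hydroxylase, rose by 2.08 ± 0.26 (SE) (adjusted p = 7.0e-09), with arrays of 74.9, 66.7 and 70.2 against 47.9 in Chrna3, the next set. Egln3, an oxygen sensor enzyme that marks HIF for degradation, rose by 1.86 ± 0.21 (SE) (adjusted p = 9.0e-10), with arrays of 28.1, 31.6 and 38.1 against 17.7 in Fbxo32. Other hypoxia targets were not called: Vegfa differed by 0.10, Slc2a1 by 0.54, Bnip3 by -0.06 and Ankrd37 by -0.67. Ndrg4 was highest in Gja10, with 25.1, but close to Opn4 with 24.6, and its difference of 0.75 was under the threshold of size; Ndrg3 differed by 0.95 (adjusted p = 0.19) and Ndrg2 by -0.03.

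For the Megf family, engulfment receptors and mosaic spacing genes, 11 of 18 were tested, none was called by limma, 1 had an unadjusted p below 0.05 and the median was -0.17. Pear1, a close relative of Megf10 and Megf11, was at 8.84 in Gja10 and differed by -0.19. Dscam, a cell adhesion gene of mosaic spacing, differed by -0.51 (adjusted p = 0.095). Along the chromosome, Dis3l and Rab11a beside Megf11 differed by 0.68 and 0.71. Plxdc2 beside Nebl had its lowest level of the 26 sets in Gja10, and the 2 nearest measured genes on each side of Tecrl and Ndrg1 lay between -0.32 and 0.61.

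**Figure D4:**
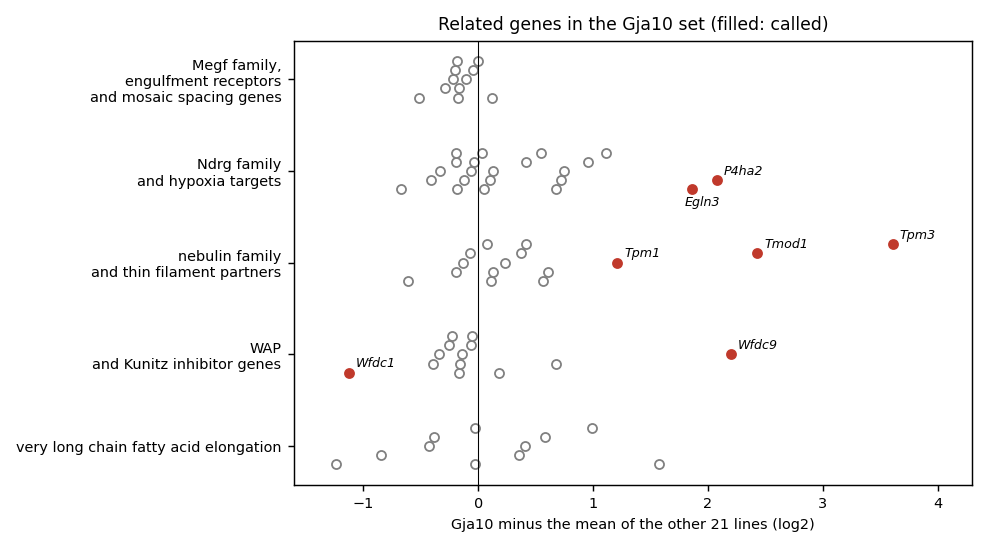
Difference (log2, x axis) between Gja10 and the mean of the other 21 lines for tested genes of the 5 lists (rows); filled points were called. The called genes run from Wfdc1 at -1.13 to Tpm3 at 3.61, and the list of the Megf family has no filled point.

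The genes whose set means follow each of the 5 most closely were listed by Pearson correlation over the 26 sets, on log2 values raised to the floor; the sets share 1 normalization, and several share a batch. For Tecrl these were Mtarc1 (r = 0.98), Lhx1 (0.97) and Gm16551 (0.97). With Gja10 left out the same r was 0.57, 0.51 and 0.73 over 25 sets. For Wfdc10 they were Myzap (0.89), Bsnd (0.88) and Mtarc1 (0.88), with 0.28, 0.31 and -0.09 when Gja10 was left out, so these likenesses rest on that single set. For Nebl they were Myo6, an unconventional myosin gene, Ddo, a D-aspartate oxidase gene, and Arhgap15 (0.87, 0.85 and 0.85), with 0.69, 0.59 and 0.58 without Gja10. For Ndrg1 they were Cpsf4l, Wfdc10 and Bmp4 (0.85, 0.85 and 0.82), with 0.62, 0.52 and 0.49, and for Megf11 Csrp3, a muscle LIM protein gene, Siah3 and Bsnd, a chloride channel subunit gene (0.78, 0.75 and 0.72), with 0.68, 0.69 and 0.28. Among the 5 genes themselves, r ran from 0.34 to 0.86 over 26 sets and from -0.51, between Nebl and Ndrg1, to 0.52, between Wfdc10 and Ndrg1, over the 25. The r over 26 sets includes the peak by which the genes were picked.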

How the data were processed

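Per the submitters' processing notes the authors used RMA in the oligo package with R 2.11.1 and the mouse build mm9; their settings are not given in the sources used here. The deposited values are 1 linear intensity per probe set and array, from 0.0238 to 5770, and the 78 columns have identical sorted values, as quantile normalization gives. The number of arrays limits the precision. Log2 of these was fitted in limma 3.58.1 (R 4.3.3) with 1 mean per set and a variance trend, and Benjamini-Hochberg adjustment ran over 15102 genes (4199 of 19301 were dim). The p-values rest on 1 spread per gene, taken over the replicates of all sets in the fit, and not on the spread of the named set alone. For Tecrl the 3 Drd4 arrays had an SD of 0.86 on the log2 scale, against a median of 0.26 over the other sets. For Wfdc10 the 3 Crh arrays had an SD of 1.33, against a median of 0.42. The SE and p-values given for these 2 calls therefore do not measure the spread within Drd4 or Crh. Of 22347 probe sets 19446 carry 1 symbol, 735 several and 2166 are not listed. On 70 arrays the smallest values are sorted by identifier, and the longest such run set the floor. Members and lists were chosen with earlier results of these data known. Named genes are the 5, the 3 most correlated with each, called genes of the lists (at most 4 per direction) and fixed relatives; genes of marker lists, neighbours and a few others under the threshold were chosen after their values were seen. Simulated shifts of 2 on the log2 scale were recovered in 96% of genes for the ChAT line, 92% for ChAT within batch 1, 91% for Gja10 and 63% for the F test (100 of 15102 genes shifted). Replicate numbers were checked as pairs: arrays with equal numbers had residuals with a mean correlation of 0.000207. Alternatives changed the filter, floor, normalization, probe set rule, array weights, replicate block, batch and arrays left out.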

Additional observations from a re-analysis of the deposited data

How the results depend on the processing

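The counts of calls of the 5 comparisons stayed within 1.5 times their value under the other filters, the floor, cyclic loess, the mean over probe sets, and array weights. A batch term was run for 3 of the 5 comparisons. That fit left out d4 and Fbxo32, which have no batch label, and took the unlabelled second Arc set as batch 2. The F test then called 9866 of 15055 genes, the lines gave 5 calls of 95 and Gja10 527 genes. These counts were also within that range, although the call of Nebl in Fbxo32 could not be made there. Within batch 3, with fewer sets and lines by construction, the F test called 6942 genes and the 5 genes had 3 calls of 50: Ndrg1 and Wfdc10 in Crh and Tecrl in Drd4. Leaving out 1 array at a time gave 11372 to 12022 genes by the F test, 6 to 8 calls over the lines, 246 to 329 genes for ChAT within batch 1, 0 to 1 calls between repeated sets and 477 to 661 genes for Gja10 against the other lines. The 1 call between repeated sets appeared without the first replicate of the unnumbered b2 set. With replicate numbers as a block the 7 calls over the lines remained 7 in number, as did the 637 genes for Gja10, with 11532 by the F test, 314 for ChAT and 0 between repeated sets; the numbers did not pair the arrays. Array weights gave 908 genes for Gja10, 464 for ChAT and 8 calls over the lines. The elongation list, with no gene called, had 2 with array weights, 1 with a batch term and 1 when any of 14 arrays was left out. Against all other amacrine lines Megf11 in ChAT was called, at 1.02. Values near the floor limit what can be said of Tecrl outside Gja10.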
